A study of Mus musculus with 18 samples.

Results

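Metallothioneins are small, cysteine-rich proteins of the cytosol that bind zinc and copper, and the 7 genes described here encode the main mouse metallothioneins together with the proteins that move zinc across membranes and the factor that senses it. The genes are Mt1 and Mt2, the zinc importers Slc39a14 (ZIP14) and Slc39a10 (ZIP10), the exporters Slc30a1 (ZNT1) and Slc30a10 (ZNT10), and Mtf1. They were taken by symbol, and all 7 were found among the 21441 genes of each table. RNA was sequenced from RAW264.7 cells, a mouse macrophage line, and from liver of wild type C57BL/6 mice, with 3 control, 3 LPS and 3 LPS+MIC-1 libraries in each and 18 libraries in all. LPS (lipopolysaccharide) is the endotoxin of Gram-negative bacteria, and MIC-1 is moringa isothiocyanate-1, a plant isothiocyanate. Male mice received saline, or LPS at 10 mg/kg into the peritoneum, or the same LPS after MIC-1. MIC-1 was given at 80 mg/kg in DMSO by oral gavage for 3 days before LPS. The study states that mice were gavaged with MIC-1 or vehicle for those days, and it names its control group a DMSO vehicle control. Livers were taken 16 h after LPS, from groups of 6 animals. The labels set the doses by the MIC-1 content of a moringa seed extract, while the study's methods name purified MIC-1, so which of these the mice received is uncertain. The cells received MIC-1 at 10 µM under LPS, and the LPS concentration and time of the sequenced cultures are not given in the sources used here. The comparisons ask what endotoxin does to these genes and what MIC-1 adds to it.

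In resting cells Mtf1, a zinc finger transcription factor, reads free zinc and binds metal response elements (MREs) in the promoters of the metallothionein genes and of Slc30a1. ZIP proteins carry zinc into the cytosol from outside the cell or from vesicles, and ZNT proteins carry it out. In the liver during an acute-phase response, interleukin-6 is known to raise ZIP14 and the metallothioneins, and zinc moves from plasma into hepatocytes, while glucocorticoids also act on Mt1 and Mt2. Electrophiles such as isothiocyanates react with thiols, and metallothionein genes are known to respond to them and to oxidants, in part through antioxidant response elements (AREs). Slc30a10 is best known as a manganese exporter of liver, and Slc39a14 carries manganese and iron as well as zinc.

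The promoter stretches of Mt1, Mt2 and Slc30a1 are shown because these are the members for which matches to the MRE core (TGCACNC or TGCGCNC, on either strand) lay closest to the annotated start. Sequences are from RefSeq on GRCm38.p6, read on the gene's strand, and run from 250 bases before the start to 30 bases after it. Capitals mark the MRE cores, reverse-strand matches included. Each stretch was found once in mm9, the build of the files, at chr8:96702739-96703018 for Mt1, chr8:96696268-96696547 for Mt2 and chr1:193730410-193730689 for Slc30a1, all on the plus strand.
Mt1: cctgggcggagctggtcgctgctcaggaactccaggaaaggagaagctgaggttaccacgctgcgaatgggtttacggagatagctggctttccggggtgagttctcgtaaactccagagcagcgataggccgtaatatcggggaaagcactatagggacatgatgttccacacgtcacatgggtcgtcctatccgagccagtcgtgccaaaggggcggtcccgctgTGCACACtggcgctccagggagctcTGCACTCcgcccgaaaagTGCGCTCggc
Mt2: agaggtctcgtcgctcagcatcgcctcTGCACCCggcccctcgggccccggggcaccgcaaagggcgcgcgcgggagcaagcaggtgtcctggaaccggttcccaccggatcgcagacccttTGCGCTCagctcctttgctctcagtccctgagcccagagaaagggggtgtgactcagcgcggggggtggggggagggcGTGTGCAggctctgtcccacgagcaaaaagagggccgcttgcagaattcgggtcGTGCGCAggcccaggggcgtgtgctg
Slc30a1: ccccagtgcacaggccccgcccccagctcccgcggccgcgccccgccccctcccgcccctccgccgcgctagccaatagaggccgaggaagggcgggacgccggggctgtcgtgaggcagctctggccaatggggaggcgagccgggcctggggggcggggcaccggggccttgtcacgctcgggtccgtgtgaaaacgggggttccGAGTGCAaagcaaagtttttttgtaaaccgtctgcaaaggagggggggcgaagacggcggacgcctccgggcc

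In the full window of 300 bases, which ends 50 bases after the start, Mt1 held 3 MRE cores, Mt2 held 4 and Slc30a1 held 2, of which the second, TGCGCTC from base 31 to base 37 after the start on the reverse strand, lies beyond the stretch shown. Slc30a10 held 3 by count, but 2 of them are the same site read on both strands 1 base apart. No MRE core was found in the window of Mtf1 or in the 2 windows of Slc39a10, and Slc39a14 had no window in the table. Of all 32544 windows in the table, 25.9% held at least 1 MRE core, 7.17% at least 2, 1.99% at least 3 and 0.522% at least 4. The ARE core TGACNNNGC was found once in the window of Mt2, as TGACTCAGC from base -79 to base -71, and once in that of Slc30a1. It was not found in the window of Mt1, and 12.4% of all windows held it. Bases beyond the windows were not searched, so these counts do not show that Mt1 lacks an ARE. MRE cores of Mt1 lay also after its annotated start, at bases 3 to 9 and 21 to 27, near the end of its window. A match is a run of letters and was not tested for binding here.

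Mt1 and Mt2 lie next to each other on mm9 chromosome 8, Mt2 at chr8:96696518-96697467 and Mt1 at chr8:96702989-96704225, both on the plus strand. Slc39a14 spans chr14:70703274-70751232 and Slc39a10 spans chr1:46864389-46910891, both on the minus strand. Slc30a1 at chr1:193730646-193737126, Slc30a10 at chr1:187278727-187292641 and Mtf1 at chr4:124479348-124527044 are on the plus strand.

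Values are FPKM (fragments relative to transcript length and library depth), scaled by the authors between the libraries of a table, and levels of different genes are compared on this scale because it is per length. Libraries are numbered in the order of the table, since its columns carry no replicate number. Estimated depth was 16.2 to 20.6 M reads in the cells. In liver it was 4.26 to 9.76 M reads in controls and 11.0 to 17.3 M reads in the other groups. Library 2 of the macrophage LPS group lay nearest to library 2 of the controls, with an SD of the log2 difference over 9905 genes of 0.298, and 1.21 from the other LPS libraries, so it goes against its label. Every macrophage result is therefore given with all 9 libraries and with the 8 left without it. In liver, library 2 of LPS and library 2 of LPS+MIC-1 lay nearer to each other (0.737) than to the other libraries of their own groups (1.03 and 0.820 at the nearest), and liver results are given also without both, over 7 libraries. Their labels were kept, and whether the 2 were exchanged was not tested. Libraries 1 and 3 of each macrophage group were close to sampling noise, with a median squared difference 1.80 to 2.55 times what sampling of reads gives, while in pairs with library 2 it was 10.0 to 205 times. In liver that difference was 2.60 times for libraries 1 and 3 of LPS+MIC-1, near the values of the cells, and 8.31 times for those of LPS. It was 6.57 times for libraries 2 and 3 of the controls and 47.8 to 115 times in the other pairs within a liver group. By the study's text the 9 liver libraries are from 9 mice, and whether this holds for the close pairs was not tested. If it does not, the liver p-values rest on fewer mice. For the cells no source used here says that the libraries of a group came from separate cultures, so their p-values measure the spread between these libraries, which may be technical.

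The labelled cell type held in both tables. In the cells the summed FPKM of 5 macrophage markers was 10912 to 13366 in every group and that of 7 hepatocyte markers 3.22 to 16.0. The sum of 7 neutrophil markers in the cells, mostly S100a8, was 2.45 to 3.56 in controls, 4.87 to 43.1 with LPS and 689 to 755 with LPS+MIC-1. In liver the hepatocyte sum was 42643 to 83056 in controls, 49087 to 51256 with LPS and 43093 to 59764 with LPS+MIC-1. The liver macrophage sum was 28.6 to 43.2 in controls, 127 to 625 with LPS and 127 to 436 with LPS+MIC-1. Lyz2 was its largest part in controls (mean 19.6 FPKM, Cd14 7.34) and Cd14 with LPS (402, Lyz2 37.0). With LPS+MIC-1 Cd14 was at 56.7, 407 and 61.4 and Lyz2 at 58.6, 19.1 and 56.7. The neutrophil sum was 36.0 to 52.2, 319 to 392 and 181 to 435. Cxcr2 was its largest part in controls (35.1) and fell to 7.05 and 5.23, while S100a8 was at 5.87, 261 and 207. Of 6 tested neutrophil markers 1 passed downward against control in both treated groups, and 5 and 4 passed upward. The Kupffer cell sum was 29.2 to 51.0 in controls, 36.9 to 53.9 with LPS and 50.9 to 96.1 with LPS+MIC-1. Of its 5 markers Marco passed upward against control in both treated groups and Clec4f and Vsig4 passed downward. The T cell sum was 12.1 to 16.3 in controls, 2.58 to 6.23 with LPS and 2.69 to 4.09 with LPS+MIC-1. The B cell sum was 3.13 to 3.88, 0.260 to 1.25 and 0.328 to 1.80, and the endothelial sum 35.4 to 38.7, 12.6 to 20.2 and 13.05 to 31.0. Clec4g was the largest endothelial part in controls (mean 25.6 FPKM) and lower with LPS (3.05) and LPS+MIC-1 (10.9). Stab2 and Kdr were also lower with LPS, and Pecam1 and Cdh5 were higher. Of these 5 markers 1 passed upward and 2 downward with LPS against control, and none with LPS+MIC-1. Markers of other cells thus differed with treatment in both directions, and their part in the results that follow was not tested. In these bulk samples fewer cells of a type and less RNA per cell cannot be told apart.

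Genes with a mean FPKM above 1 were tested, which left 6 of the 7 members in each table, since Slc30a10 fell short in the cells and Slc39a10 in liver. A gene passed the threshold with an adjusted p below 0.01 in the cells or below 0.05 in liver (limma, Benjamini-Hochberg over all genes tested) and a Log2FC beyond 1 in either direction. Log2FC is the difference of mean log2(FPKM + 0.5) values, which understates the change of low genes.

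In the macrophages the metallothioneins stood far above the other members, and 2 of the 3 LPS libraries and all LPS+MIC-1 libraries lay above every control for both genes. Mt1 measured 704, 670 and 691 FPKM in controls, 2534, 637 and 2710 under LPS, and 1537, 1078 and 1637 with LPS+MIC-1. LPS libraries 1 and 3 were the highest, LPS library 2 lay below every control, and all LPS+MIC-1 libraries lay above the controls and below LPS libraries 1 and 3. Mt2, the gene beside it, measured 602, 633 and 621 FPKM in controls, 2023, 623 and 2208 under LPS, and 4080, 2111 and 3995 with LPS+MIC-1. Here the LPS+MIC-1 libraries were the highest, apart from library 2, which lay between LPS libraries 1 and 3.

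With all 9 libraries 0 of the 6 tested members passed the threshold for LPS against control (limma), as did 0% of all genes tested. An unadjusted p below 0.05 was found for 4 of the 6 and for 49.8% of all genes. Mt1 had a Log2FC of 1.25 (SE 0.508, adjusted p = 0.0880, limma) and Mt2 of 1.18 (SE 0.481, adjusted p = 0.0879, limma). Without LPS library 2 both metallothioneins rose, with 34.2% of all genes past the threshold. Mt1 then had a Log2FC of 1.93 (SE 0.163, adjusted p = 2.2e-05, limma), or 3.80-fold, and Mt2 of 1.77 (SE 0.261, adjusted p = 0.000437, limma), or 3.42-fold. FPKM totals were 1132904 to 1137533 in these 2 libraries and 557136 to 652486 in all others of the table, and with every library rescaled to the same total the Log2FC of the 8 libraries was 0.94 for Mt1 and 0.78 for Mt2, neither past the threshold, while the median of all genes moved from -0.02 to -0.93. Of all genes 51.2% passed on that scale, and 0% on it with 9 libraries.

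With MIC-1 added to LPS, Mt2 exceeded Mt1 in every library. Against LPS the Log2FC of Mt2 was 1.21 (SE 0.481, adjusted p = 0.106, limma) with 9 libraries and 0.62 (SE 0.261, adjusted p = 0.0657, limma) with 8. For Mt1 it was -0.23 (SE 0.508, adjusted p = 0.767, limma) with 9 and -0.91 (SE 0.163, adjusted p = 0.00166, limma) with 8, short of the fold threshold. None of the 6 tested members passed, against 3.87% of all genes with 9 libraries and 23.3% with 8, and 3 of the 6 had an unadjusted p below 0.05 with 9, beside 37.8% of all genes. On totals rescaled to be equal, with 8 libraries, Mt2 passed at 1.43 and the Log2FC of Mt1 was -0.11, where 39.1% of all genes passed and 3.46% with 9 libraries.

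The ratio of Mt2 to Mt1 within a library does not depend on how libraries are scaled. It was 0.855, 0.944 and 0.898 in control cells, 0.798, 0.977 and 0.815 under LPS, and 2.65, 1.96 and 2.44 with LPS+MIC-1. Every library with MIC-1 had more Mt2 than Mt1, and every library without it had less. The mean ratio was 0.899 ± 0.0446 (SD, n = 3) in controls, 0.864 ± 0.0990 with LPS and 2.35 ± 0.356 with LPS+MIC-1. The ratio was 2.71-fold higher with LPS+MIC-1 than with LPS, with no overlap between the groups (p = 0.1 in a two-sided exact permutation test, the lowest possible with 3 libraries a group), and 2.89-fold higher without LPS library 2 (p = 0.2 in the same exact test, the lowest possible with 3 and 2).

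**Figure D1:**
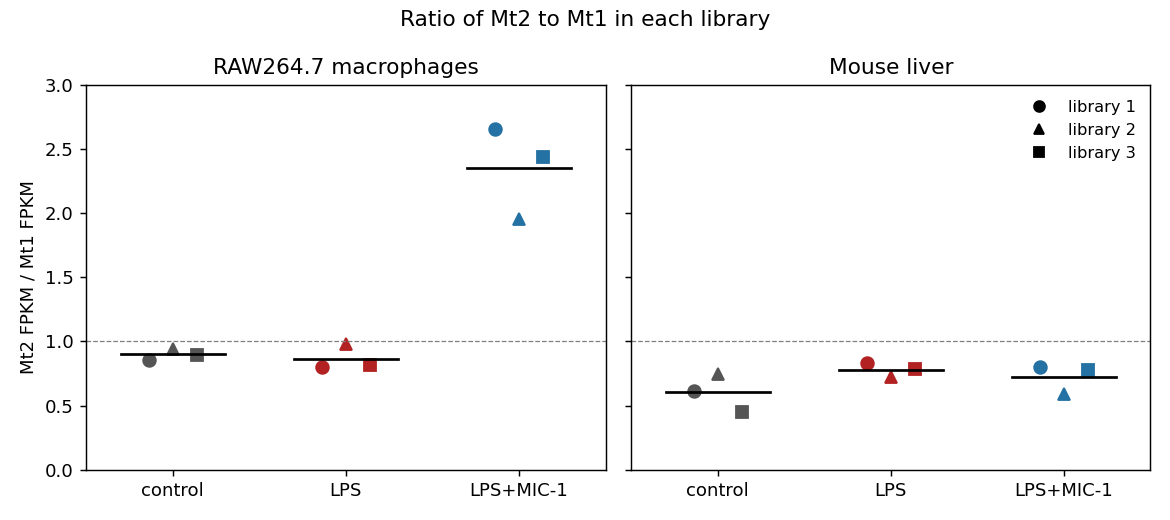
Ratio of Mt2 FPKM to Mt1 FPKM (vertical axis, no unit) in each library of RAW264.7 cells (left) and liver (right), with the group means as black bars (n = 3) and a dashed line where both genes are equal. The 3 LPS+MIC-1 libraries of the cells lie between 1.96 and 2.65, and all other libraries of both tables lie between 0.446 and 0.977.

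In liver the same ratio was 0.611, 0.750 and 0.446 in controls, 0.830, 0.721 and 0.783 under LPS, and 0.802, 0.594 and 0.777 with LPS+MIC-1. The groups overlapped, and Mt1 was above Mt2 in all 9 livers. LPS+MIC-1 differed from LPS by 0.925-fold (exact permutation test, two-sided, p = 0.6). Whether the cells and the liver differ in this response was not tested.

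Against untreated cells, LPS+MIC-1 gave a Log2FC of 2.39 for Mt2 (SE 0.481, adjusted p = 0.0112, limma), or 5.26-fold, and of 1.02 for Mt1 (SE 0.508, adjusted p = 0.178, limma), or 2.03-fold, with 9 libraries. None of the 6 tested members passed there, against 5.59% of all genes, and an unadjusted p below 0.05 was found for 2 of the 6 and for 38.6% of all genes. Both metallothioneins passed once LPS library 2, which is in neither group but adds to the estimated spread, was left out (adjusted p = 9.4e-05 for Mt2 and 0.00064 for Mt1, limma, 15.7% of all genes past the threshold). On rescaled totals Mt2 passed with 9 and with 8 libraries (3.81% and 17.4% of all genes) and Mt1 with neither. Mt2 ranked 11, 33 and 11 among all genes of the LPS+MIC-1 libraries and 137 to 146 among those of the controls.

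The importers were expressed far lower. Slc39a14, which carries zinc, iron and manganese into cells, measured 13.3, 10.5 and 13.8 FPKM in control cells, 6.83, 10.9 and 7.02 under LPS, and 13.9, 12.9 and 13.4 with LPS+MIC-1. LPS libraries 1 and 3 held the lowest values of the table, while library 2 and the LPS+MIC-1 libraries were near the controls. The Log2FC of LPS against control was -0.60 (SE 0.192, adjusted p = 0.0777, limma) with 9 libraries and -0.80 (SE 0.116, adjusted p = 0.000384, limma) with 8. With LPS+MIC-1 against LPS it was 0.70 (SE 0.192, adjusted p = 0.0376, limma) and 0.90 (SE 0.116, adjusted p = 0.000278, limma), and against control 0.10 (SE 0.192, adjusted p = 0.734, limma). These differences stayed under the fold threshold on the deposited scale, and on totals rescaled to be equal, with 8 libraries, the first was -1.73 and the second 1.65, both past the threshold.

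Slc39a10, an importer of the plasma membrane, was at 12.1, 11.7 and 12.3 FPKM in controls, 11.3, 10.7 and 11.4 under LPS, and 9.03, 12.1 and 8.03 with LPS+MIC-1. The LPS libraries lay just below the controls without overlap, as did 17.2% of all genes in that direction, by a Log2FC of -0.11 (SE 0.151, adjusted p = 0.555, limma). On totals rescaled to be equal, with 8 libraries, Slc39a10 passed at -1.03, near the median of all genes there. LPS+MIC-1 libraries 1 and 3 were the lowest and library 2 was within the controls, with a Log2FC of -0.20 against LPS (SE 0.151, adjusted p = 0.349, limma), and 0.53 on rescaled totals with 8 libraries.

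Of the exporters, Slc30a1, which sends zinc out through the plasma membrane, measured 4.56, 4.25 and 4.76 FPKM in control cells, 7.24, 4.40 and 7.33 under LPS, and 5.30, 5.23 and 4.80 with LPS+MIC-1. The pattern followed Mt1, with LPS libraries 1 and 3 the highest and the LPS+MIC-1 libraries between them and the controls. Its Log2FC for LPS against control was 0.41 (SE 0.193, adjusted p = 0.120, limma) with 9 libraries and 0.63 (SE 0.0875, adjusted p = 0.000305, limma) with 8. For LPS+MIC-1 against LPS it was -0.25 (SE 0.193, adjusted p = 0.368, limma) and -0.47 (SE 0.0875, adjusted p = 0.00192, limma), under the fold threshold throughout, and on totals rescaled to be equal the signs turned, to -0.28 and 0.27 with 8 libraries, neither past the threshold. Slc30a10 was listed at 0 in 7 of the 9 macrophage libraries and at the value of 1 read in the other two.

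Mtf1, the zinc sensor itself, was at 3.60, 3.86 and 3.74 FPKM in controls, 5.45, 4.04 and 4.92 under LPS, and 6.55, 6.73 and 6.70 with LPS+MIC-1. Its groups did not overlap in any of the 3 comparisons, each step being upward, and LPS library 2 lay just above the highest control. With LPS+MIC-1 against control the Log2FC was 0.76 (SE 0.135, adjusted p = 0.00714, limma), or 1.69-fold, below the fold threshold, where 31.4% of all genes also lay higher without overlap, as did 16.1% for LPS against control and 17.9% for LPS+MIC-1 against LPS. It was 0.32 for LPS against control (SE 0.135, adjusted p = 0.0976, limma) and 0.44 for LPS+MIC-1 against LPS (SE 0.135, adjusted p = 0.0513, limma). On totals rescaled to be equal the first of these became -0.29, and -0.46 without LPS library 2, where LPS+MIC-1 against LPS passed at 1.06.

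**Figure D2:**
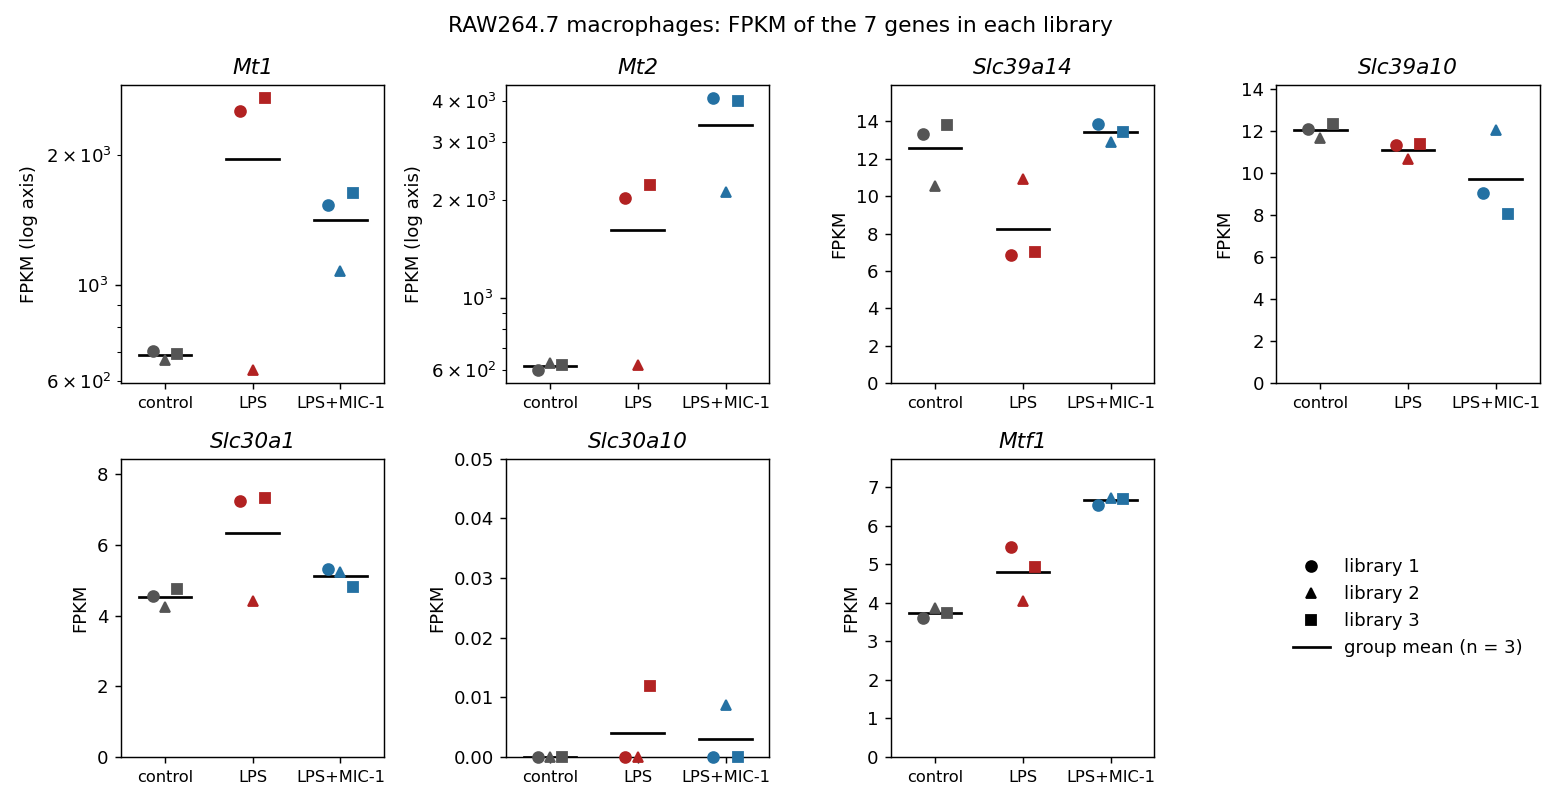
FPKM of the 7 genes in each of the 9 RAW264.7 libraries, 1 panel per gene, with a log axis for Mt1 and Mt2 and axes from 0 for the rest; symbols mark libraries 1 to 3 and black bars the group means (n = 3). LPS library 2 (triangle) sits with the controls for Mt1, Mt2, Slc39a14 and Slc30a1, and Mt2 reaches 2111 to 4080 FPKM with LPS+MIC-1.

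The order of levels in control cells was Mt1, Mt2, Slc39a14, Slc39a10, Slc30a1, Mtf1 and Slc30a10, and only the ranges of Slc39a14 and Slc39a10 overlapped among neighbours. With LPS+MIC-1, Mt2 came before Mt1 and Mtf1 before Slc30a1, each without overlap. In the LPS group the pairs Mt1 and Mt2, Slc39a10 and Slc39a14, Slc39a14 and Slc30a1, and Slc30a1 and Mtf1 overlapped.

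In liver LPS raised the metallothioneins and the importer Slc39a14. Mt1 measured 310, 1496 and 77.9 FPKM in controls, 10542, 8999 and 15314 under LPS, and 18929, 20292 and 20433 with LPS+MIC-1. No control came near a treated library, the controls themselves spanned a wide range with library 2 the highest, and every LPS+MIC-1 library lay above every LPS library. Of all genes 24.2% lay higher without overlap for LPS against control and 30.5% for LPS+MIC-1 against control. Mt2 measured 189, 1121 and 34.8 FPKM in controls, 8747, 6485 and 11985 under LPS, and 15181, 12050 and 15874 with LPS+MIC-1. The order was the same, although the lowest LPS+MIC-1 library (12050) and the highest LPS library (11985) nearly met.

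For LPS against control 3 of the 6 tested members passed the threshold, all upward, against 13.4% of all genes passing upward. Mt1 rose 34.2-fold (Log2FC 5.09, SE 0.875, adjusted p = 0.00540, limma) and Mt2 rose 44.9-fold (Log2FC 5.49, SE 1.02, adjusted p = 0.00676, limma). Slc39a14 measured 28.8, 27.0 and 24.0 FPKM in controls, 98.1, 53.4 and 96.8 under LPS, and 88.0, 83.0 and 85.0 with LPS+MIC-1. LPS library 2 was well below the other LPS libraries and still above every control. Slc39a14 rose 2.97-fold with LPS (Log2FC 1.57, SE 0.245, adjusted p = 0.00401, limma). The size of the metallothionein change depended on control library 2, without which the Log2FC was 6.18 for Mt1 and 6.75 for Mt2, and on control library 3, without which it was 4.06 and 4.25, and all 3 genes passed whichever single library was left out. None of them passed with libraries 1 and 3 of each group averaged (adjusted p = 0.0716 for Mt1, 0.0767 for Mt2 and 0.0815 for Slc39a14, limma), which leaves 2 samples a group.

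Against control, LPS+MIC-1 gave the same 3 genes, with 13.8% of all genes passing upward. Mt1 was 60.0-fold higher (Log2FC 5.91, SE 0.875, adjusted p = 0.00291, limma), Mt2 72.9-fold (Log2FC 6.19, SE 1.02, adjusted p = 0.00407, limma) and Slc39a14 3.17-fold (Log2FC 1.67, SE 0.245, adjusted p = 0.00280, limma). Both comparisons share the control libraries. Mt1 and Mt2 together took 0.0191 to 0.419% of the FPKM total in controls, 1.80 to 3.08% with LPS and 3.23 to 3.41% with LPS+MIC-1.

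LPS+MIC-1 against LPS in liver had no member past the threshold (limma, 0% of all genes, and none of the 6 members at an unadjusted p below 0.05, beside 3.59% of all genes). The Log2FC was 0.81 for Mt1 (SE 0.875, adjusted p = 0.997, limma), 0.70 for Mt2 (SE 1.02, adjusted p = 0.997, limma) and 0.10 for Slc39a14 (SE 0.245, adjusted p = 0.997, limma). The SE includes the spread of the controls, which was wide for the metallothioneins. Within the groups compared, Mt1 and Mt2 were higher with LPS+MIC-1 without overlap (two-sided exact permutation test, p = 0.1 each, the smallest possible), where 5.1% of all genes also lay higher without overlap. FPKM totals were 783886 to 887241 with LPS and 1000904 to 1063784 with LPS+MIC-1. The share of Mt1 in the total was 1.34, 1.05 and 1.73% with LPS. With LPS+MIC-1 it was 1.85, 2.03 and 1.92%, still without overlap. For Mt2 the share in LPS+MIC-1 library 2 lay below that in LPS library 3, so the groups overlapped on that scale. The separation in deposited FPKM would be lost if the labels of libraries 2 were exchanged. The highest LPS value would then be 20292 for Mt1 and the lowest LPS+MIC-1 value 8999, and for Mt2 12050 and 6485. Libraries 1 and 3 alone did not overlap. For Mt1 they were at 10542 and 15314 with LPS and at 18929 and 20433 with LPS+MIC-1. For Mt2 they were at 8747 and 11985, and at 15181 and 15874. Without library 2 of both treated groups the Log2FC was 0.63 for Mt1 and 0.60 for Mt2, and -0.17 for Slc39a14, again with no member past the threshold, against 2.99% of all genes.

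Slc30a1 was low in liver, at 2.90, 1.56 and 1.05 FPKM in controls, 6.79, 2.20 and 7.12 under LPS, and 5.56, 3.08 and 6.09 with LPS+MIC-1. Library 2 was the lowest of each treated group, and LPS library 2 lay within the controls. Its Log2FC was 1.26 for LPS against control (SE 0.469, adjusted p = 0.0653, limma) and 1.24 for LPS+MIC-1 against control (SE 0.469, adjusted p = 0.0678, limma). It passed both ways without control library 1 (adjusted p = 0.0402 and 0.0409, limma), without LPS library 2 (0.00894 and 0.0230), and without library 2 of both treated groups (Log2FC 1.75 and 1.51, adjusted p = 0.00689 and 0.0139, limma, with 4 members and 34.9% and 29.0% of all genes past the threshold), and LPS+MIC-1 against LPS was at -0.02.

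Slc30a10, the manganese exporter, was more abundant than Slc30a1 in liver. It was at 6.76, 9.47 and 11.6 FPKM in controls, 14.3, 10.9 and 15.4 under LPS, and 12.6, 11.4 and 13.4 with LPS+MIC-1. Each treated group overlapped the controls, and its Log2FC was 0.54 with LPS (SE 0.225, adjusted p = 0.0908, limma) and 0.44 with LPS+MIC-1 (SE 0.225, adjusted p = 0.155, limma). Mtf1 measured 5.50, 3.67 and 2.83 FPKM in controls, 3.86, 3.62 and 3.08 under LPS, and 2.57, 3.83 and 2.08 with LPS+MIC-1. Its groups overlapped throughout, with a Log2FC of -0.12 for LPS (SE 0.276, adjusted p = 0.740, limma) and -0.43 for LPS+MIC-1 (SE 0.276, adjusted p = 0.247, limma), both against control. Slc39a10, not tested in liver, stood at 0.853, 0.536 and 1.01 FPKM in controls, 2.17, 0.0881 and 1.82 under LPS, and 0.408, 1.45 and 0.401 with LPS+MIC-1, from 5 to 180 reads, and its libraries 2 went the other way from libraries 1 and 3 in both treated groups.

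**Figure D3:**
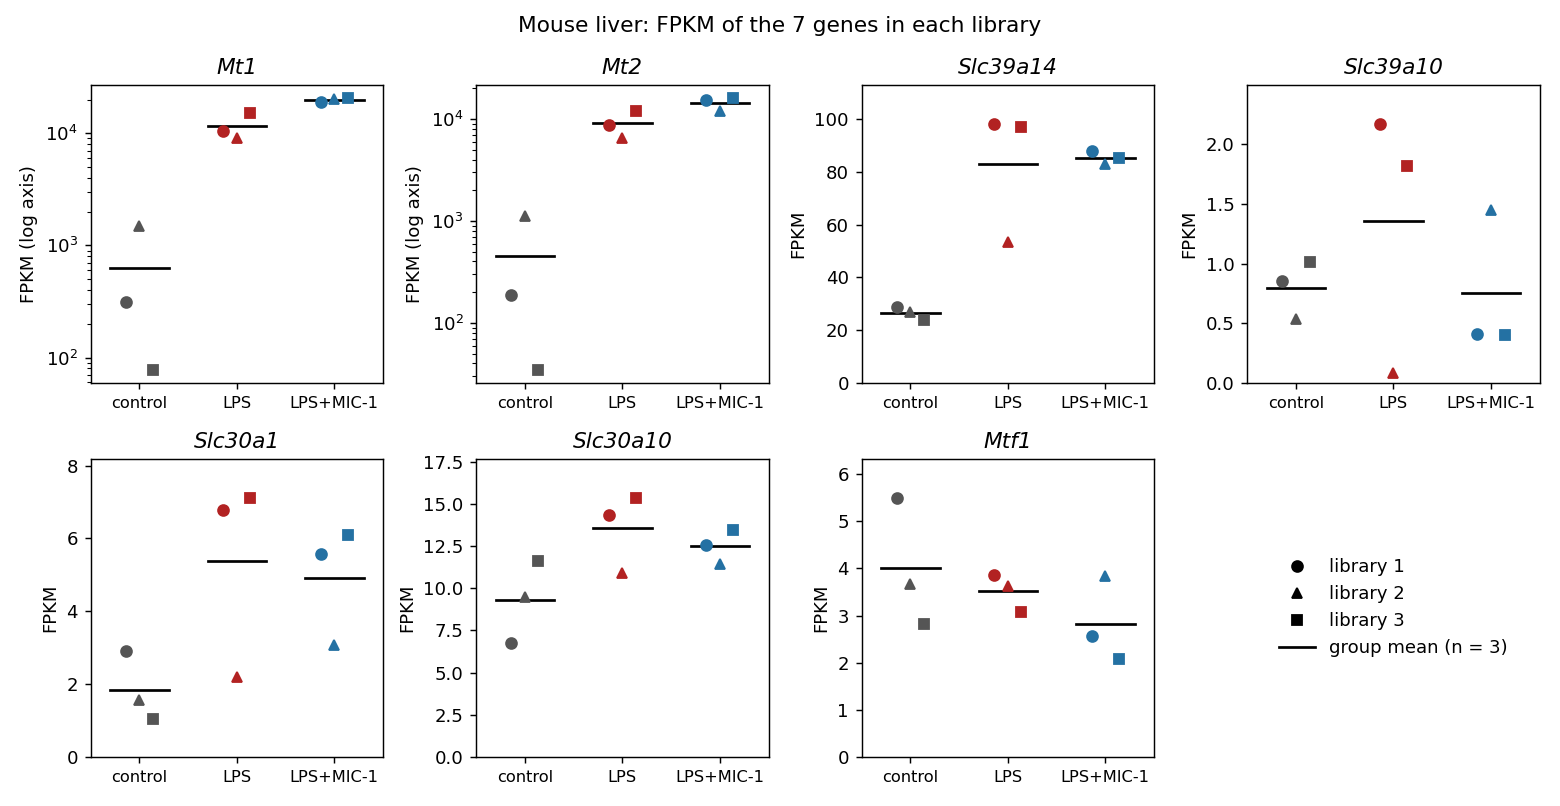
FPKM of the 7 genes in each of the 9 liver libraries, drawn as for the cells, with log axes for Mt1 and Mt2. Mt1 and Mt2 separate all 3 groups, Slc39a14 separates the controls (24.0 to 28.8) from the treated livers (53.4 to 98.1), and Mtf1, Slc30a10 and Slc39a10 overlap.

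In control liver the order was Mt1, Mt2, Slc39a14, Slc30a10, Mtf1, Slc30a1 and Slc39a10, where Mt1 and Mt2 overlapped, as did Mtf1 and Slc30a1. In both treated groups Slc30a1 came before Mtf1, with overlapping ranges. Mt1 and Mt2 overlapped with LPS and not with LPS+MIC-1.

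**Figure D4:**
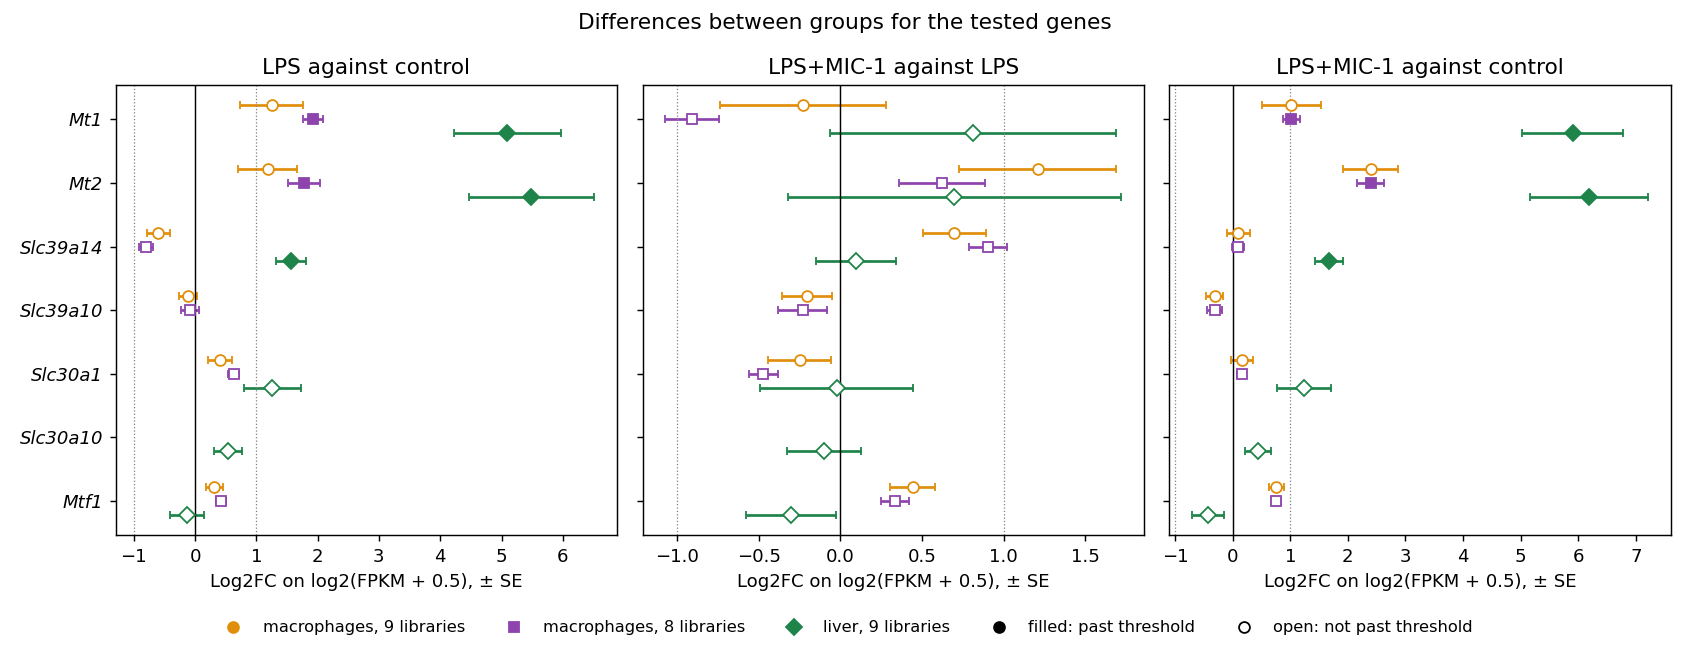
Log2FC (horizontal axis, difference of mean log2(FPKM + 0.5), with SE bars) of the tested genes in the 3 comparisons for the cells with 9 and with 8 libraries and for liver; filled symbols passed the threshold and dotted lines mark a Log2FC of -1 and 1. Filled symbols stand in liver for Mt1, Mt2 and Slc39a14 against control and in the cells for Mt1 and Mt2 against control with 8 libraries, and none stands in the middle panel.

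The genes whose pattern over the 9 liver libraries was most like the mean z-score of Mt1 and Mt2 were Saa2 (Pearson's r 0.998), Saa3, Saa1, Apcs and Lcn2 (0.994), which encode acute-phase proteins. Saa2, a serum amyloid, measured 524, 4703 and 57.6 FPKM in control livers, 33709, 25531 and 48120 under LPS, and 66233, 65252 and 67773 with LPS+MIC-1. Control library 2 was thus the highest control and library 3 the lowest for Saa2 as for Mt1 and Mt2. Over the macrophage libraries the nearest were Styk1 (0.995), Ccnl2, Gstt4, U90926 and Tmem132a (0.992), which are no acute-phase genes. These correlations describe 9 libraries that share treatment and scaling.

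The remaining metallothioneins were rare. Mt3, best known from brain, stayed below the expression filter in the cells and measured 0, 0.453 and 0 FPKM in control liver, 10.0, 2.72 and 14.7 under LPS, and 1.28, 10.5 and 2.12 with LPS+MIC-1. It passed against control in liver both with LPS (adjusted p = 0.00968, limma) and with LPS+MIC-1 (adjusted p = 0.0299, limma). Library 2 of each treated group lay nearest the other group's level, and without those libraries Mt3 also passed for LPS+MIC-1 against LPS, at -2.55 (adjusted p = 0.0355, limma). Mt4 was at 0 in all macrophage libraries and in 6 of the 9 liver libraries.

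Of the other Slc39a importers 10 of 12 were tested in each table. In liver 2 of 10 passed upward with LPS against control, Slc39a1 (Log2FC 1.29) and Slc39a7 (1.22), with a list median of 0.79 against 0.15 for all genes, and with LPS+MIC-1 against control these and Slc39a4 (1.07) passed, with a median of 0.97 against 0.15. Without library 2 of both treated groups the counts were 4 and 2 of 10, all upward. Of all genes 13.4% and 13.8% passed upward in these comparisons, and 19.2% and 16.0% without those libraries. In the cells Slc39a4, an importer known from intestine, was at 0.339, 0.864 and 0.347 FPKM in controls, 0.898, 0.783 and 1.00 under LPS, and 3.20, 3.80 and 2.79 with LPS+MIC-1. Slc39a4 was the 1 importer of the list that passed with 9 libraries, both against LPS (Log2FC 1.43, adjusted p = 0.00686, limma) and against control (1.92, adjusted p = 0.00190, limma). The shares of all genes passing there were 3.87% and 5.59%. Slc39a2 had the largest Log2FC of the list with LPS in the cells, at 0.536, 1.06 and 0.569 FPKM in controls, 30.0, 1.19 and 31.1 under LPS, and 1.97, 3.03 and 2.65 with LPS+MIC-1. It passed without LPS library 2 in all 3 comparisons (Log2FC 4.69, -3.36 and 1.33), where 34.2%, 23.3% and 15.7% of all genes passed. There Slc39a6 (-1.15) and Slc39a8 (-1.04) passed downward with LPS against control. On totals rescaled to be equal, with 8 libraries, 1 importer passed upward and 5 downward with LPS against control. For LPS+MIC-1 against LPS 6 passed upward and 1 downward on that scale. The shares of all genes passing on it were 51.2% and 39.1%.

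Among the other Slc30a exporters 5 of 8 were tested in the cells. On the deposited scale none passed in any comparison with 9 or with 8 libraries. With 9 libraries the medians were -0.42, 0.61 and 0.19 for LPS against control, LPS+MIC-1 against LPS and LPS+MIC-1 against control. For all genes they were -0.03, -0.01 and -0.04. The largest Log2FC values were those of Slc30a7 (0.78, LPS+MIC-1 against control) and Slc30a9 (0.74, LPS+MIC-1 against LPS). On totals rescaled to be equal, with 8 libraries, 4 exporters passed downward with LPS against control, as did 46.2% of all genes. For LPS+MIC-1 against LPS 4 passed upward on that scale, as did 36.4% of all genes. In liver 4 were tested and Slc30a5, which loads zinc into the secretory pathway, passed upward against control with LPS (1.26, adjusted p = 0.00386, limma) and with LPS+MIC-1 (1.43, adjusted p = 0.00214, limma). The shares of all genes passing upward were 13.4% and 13.8%. Slc30a9 had a larger Log2FC in liver, 1.88 for LPS+MIC-1 against LPS, that did not pass (adjusted p = 0.997, limma).

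Of the genes that handle copper, the other metal of metallothioneins, 6 of 7 were tested in the cells and 0 passed with 9 libraries in any comparison. With 8 libraries the copper importer Slc31a1 (1.83), Slc31a2 (3.02) and the copper pump Atp7a (1.31) passed with LPS against control. Slc31a1 (-1.31) and the chaperone Atox1 (-1.15) passed with LPS+MIC-1 against LPS, and Slc31a2 (2.07) and Atp7a (1.08) with LPS+MIC-1 against control. The shares of all genes passing were 34.2%, 23.3% and 15.7%. On totals rescaled to be equal, with 8 libraries, 1 copper gene passed upward and 1 downward with LPS against control. In each of the other 2 comparisons 1 passed upward. On that scale 51.2%, 39.1% and 17.4% of all genes passed. In liver 5 were tested, of which ceruloplasmin, Cp, passed with LPS (1.07) and with LPS+MIC-1 (1.10) against control and the chaperone Ccs (-1.25) with LPS. Slc31a2 was listed at 0 in all 3 control livers and at 7.42, 4.57 and 4.49 FPKM under LPS, and passed there. Of all genes in liver 24.6% passed with LPS against control and 25.2% with LPS+MIC-1 against control.

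Of 9 genes that belong to or report the interleukin-6 and glucocorticoid routes to the metallothionein genes, 8 were tested in each table. In liver 4 of 8 passed upward with LPS against control, namely Stat3 (1.74), the interleukin-6 feedback gene Socs3 (2.51) and the glucocorticoid-induced genes Fkbp5 (2.91) and Per1 (1.87), and Sgk1 (2.22) joined these with LPS+MIC-1 against control. The list medians were 1.61 and 1.59 beside 0.15 for all genes, of which 13.4% and 13.8% passed upward. Without library 2 of the treated groups 6 of 8 passed upward in both comparisons, beside 19.2% and 16.0% of all genes. In the cells none passed with 9 libraries, and Tsc22d3 (2.29) and Per1 (2.20) had the largest Log2FC for LPS against control. With 8 libraries Tsc22d3, Per1 (both 3.19) and Sgk1 (1.71) passed upward and the receptor gene Il6ra downward (-1.98) for LPS against control. Tsc22d3 (-2.44) and Per1 (-2.39) passed downward and Socs3 (1.41) upward for LPS+MIC-1 against LPS, and Sgk1 (1.57) upward for LPS+MIC-1 against control. The shares of all genes passing were 34.2%, 23.3% and 15.7%. On totals rescaled to be equal, with 8 libraries, 2 passed upward and 3 downward, then 2 and 2, then 1 and 0. On that scale 51.2%, 39.1% and 17.4% of all genes passed.

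Other genes known as Mtf1 targets passed in both directions. In the cells with 9 libraries the iron exporter Slc40a1 passed upward with LPS+MIC-1, by 2.11 against LPS and 1.75 against control, of 6 tested. Csrp1 passed downward by -1.23 against control. In these 2 comparisons 3.87% and 5.59% of all genes passed. With 8 libraries Ndrg1 (1.85), Sepw1 (2.17) and Pgf (3.36) passed upward for LPS against control. Gclc (-1.50), a subunit of the enzyme that makes the precursor of glutathione, passed downward there. For LPS+MIC-1 against LPS, Gclc (1.77) and Slc40a1 (2.44) passed upward and Sepw1 (-2.44) and Pgf (-2.80) downward. The shares of all genes passing were 34.2% and 23.3%. On totals rescaled to be equal, with 8 libraries, 2 passed upward and 3 downward, then 2 and 2. On that scale 51.2% and 39.1% of all genes passed. In liver Gclc (-1.74) and Slc40a1 (-1.37) passed downward with LPS against control and Gclc (-1.56) with LPS+MIC-1, of 5 tested, and none passed for LPS+MIC-1 against LPS. Without library 2 of both treated groups Csrp1 passed upward in both comparisons with control (1.61 and 1.12), and Slc40a1 passed upward for LPS+MIC-1 against LPS (2.05, adjusted p = 0.00561, limma). Against control 24.6% of all genes passed with LPS and 25.2% with LPS+MIC-1, and 34.9% and 29.0% without those libraries. For LPS+MIC-1 against LPS the share without them was 2.99%.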

How the data were processed

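RNA-seq values of 9 macrophage and 9 liver libraries were used, 18 in all. The authors quantified reads from BGI with Kallisto 0.45.0 on a RefSeq index of mm9, combined transcripts into genes by tximport, and the FPKM they deposited came from DESeq2 1.20.0. The mean normalized count over libraries, a signal the authors deposited beside their own comparisons, was used only to recover what 1 read is worth in FPKM (92.3 to 97.2% of low values came out whole within 0.1), from which depth was estimated. FPKM of a table are comparable between its libraries only as far as that scaling holds. The fold changes and p-values of the deposited comparisons were not used. All columns were matched to a group by name (0 unmatched), and they carry no replicate number. The labels give the mouse doses also for the cells, so the 10 µM is taken from the column headings and the study's text. The study reports using 8 of the 9 macrophage libraries.

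Each table was fitted alone on log2(FPKM + 0.5), over genes with a mean FPKM above 1 (9905 in macrophages and 10147 in liver), with limma 3.58.1 in R 4.3.3 (lmFit, contrasts, eBayes with trend), all groups in 1 fit and Benjamini-Hochberg adjustment over all genes tested. Read counts were not analysed, so no count model was fitted. Single values were compared with two-sided exact permutation tests in Python 3.11.15 with scipy 1.17.1. The procedure was tested on simulated data. The members and lists were chosen with earlier results of these data known. All 7 members are named, with the genes of each list that passed and the 2 with the largest Log2FC, and the 5 genes most like Mt1 and Mt2. Other settings covered the pseudocount (0.1 and 1), the filter, scaling, trend, threshold, groups in the fit and each library left out. The fit of 7 liver libraries and 5 further settings were added after the data were seen.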

Additional observations from a re-analysis of the deposited data

Results flagged for a closer look

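For 3 genes every treated library lay on one side of the compared group's mean in the cells and on the opposite side in liver, on the FPKM scale and with all 9 libraries of each table. On the log2 scale of the values given here this did not hold for Mt1, since 1 of the 3 LPS+MIC-1 libraries of the cells lay above the LPS mean. The differences between the cells and liver were not tested, and FPKM levels of the 2 tables were normalized apart. For LPS against control the Log2FC of Slc39a14 was -0.60 in the cells and 1.57 in liver, and that of Mtf1 was 0.32 and -0.12. For LPS+MIC-1 against LPS, Mt1 was at -0.23 in the cells and 0.81 in liver. For LPS+MIC-1 against control, Mtf1 was at 0.76 in the cells and -0.43 in liver. With FPKM totals rescaled to be equal over all 9 libraries, 2 of these contrasts were lost. The sign in the cells turned to that of liver for Mtf1 with LPS against control and for Mt1 with LPS+MIC-1 against LPS.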

How the results depend on the processing

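No paired analysis was possible because the columns of the tables carry no replicate numbers. With 9 libraries 0 members passed in any macrophage comparison, and each of the settings here changed that; the cause was not tested. For LPS against control the count was 0 to 2 over fits without 1 library, with 2 only without LPS library 2, and 2 with 8 libraries, whether rescaled by median of ratios, restricted to the groups compared or with any further library left out; on equal FPKM totals it was also 2, but these were Slc39a14 and Slc39a10, both lower. For LPS+MIC-1 against LPS it was 1 on equal totals, 3 on equal totals with 8 libraries, and 0 to 1 with 8 libraries less 1 more (1 without LPS+MIC-1 library 3, where Mt1 passed at -1.03). For LPS+MIC-1 against control it was 1 on equal totals with 9 and with 8 libraries, 1 with no minimum fold, 1 at an adjusted p of 0.05, 2 with only the groups compared, 0 to 2 over fits without 1 library, 2 with 8 libraries also after median of ratios or with only the groups compared, and 1 to 2 with 8 libraries less 1 more, with Mt1 lost without control library 2 or LPS+MIC-1 library 1 or 3. In liver the counts were 3, 0 and 3, and averaging libraries 1 and 3 of each group left 0 for LPS against control.

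Several Log2FC values that did not pass changed sign. In the cells on equal totals, with 9 and with 8 libraries, these were Slc30a1 (-0.22 and -0.28) and Mtf1 (-0.29 and -0.46) for LPS against control, Slc39a10 (0.27 and 0.53) and Slc30a1 (0.21 and 0.27) for LPS+MIC-1 against LPS, and Slc39a14 (-0.081 in both) and Slc30a1 (-0.011 in both) for LPS+MIC-1 against control. Mt1 for LPS+MIC-1 against LPS turned to 0.27 on equal totals with 9 libraries, 0.086 and 0.13 without LPS library 1 or 3 (range -0.91 to 0.13 over fits without 1 library), and 0.017 with libraries 1 and 3 averaged. Slc39a14 for LPS+MIC-1 against control turned to -0.016 without control library 2, with 9 or 8 libraries (range -0.016 to 0.17). In liver Mtf1 for LPS against control turned to 0.10 without control library 1 (range -0.32 to 0.10). For LPS+MIC-1 against LPS, Slc39a14 turned to -0.19 on equal totals, -0.19 without LPS library 2 and -0.17 with 7 libraries, and Slc30a1 to 0.21, 0.24 and 0.25 without LPS library 1, LPS library 3 or LPS+MIC-1 library 2 (range -0.51 to 0.25), and to 0.085 with libraries averaged. Slc30a10 for LPS+MIC-1 against control turned to -0.19 on equal totals. Of all values recomputed 839 kept direction and side of the threshold, 61 newly passed, 3 no longer passed and 27 changed sign. Slc30a10 in the cells and Slc39a10 in liver lay below the expression filter and were not tested.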
